A study of Mus musculus with 9 samples.

Results

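Lymphocyte homing and lymphoid stroma genes were followed in RNA sequencing of mouse adipose tissue. The set held 7 genes, and all 7 were found by gene name among the 3958 genes of the count table: Itgal, Coro1a, Ptprc, Stk17b, Vcam1, Cxcl13 and Slpi. They were chosen by name, with earlier results of these same libraries in view. Which measured values guided the choice is not recorded, and no threshold is given. All levels and differences below are therefore descriptions, and no p-value is offered as support for the choice.

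The 9 libraries came from adipose tissue of male C57BL/6J mice, an inbred laboratory strain, at day 21, and the depot and the age are not given in the labels. The EA group (libraries 5, 7 and 8, titled APX) carries the treatment label EA, which the series title gives as electroacupuncture, a current passed through acupuncture needles. The design text pairs EA with HFD, the high-fat diet that made the mice of the title obese. The groups MPX (libraries 2, 5 and 7) and CPX (libraries 4, 6 and 8) carry no treatment label. Between them they hold the normal-diet and high-fat-diet mice of the design, but no label says which is which, so no difference is given a diet direction. Nothing states that each library is a separate mouse, so a p-value here covers only library-to-library spread, which may be technical.

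Leukocytes leave the blood in steps. Selectins slow them, chemokines presented on the vessel wall activate their integrins, and the integrins then bind immunoglobulin-type adhesion molecules such as ICAM-1 and VCAM-1. Inside lymph nodes and the milky spots and fat-associated lymphoid clusters of visceral fat, stromal cells and macrophages make the chemokine CXCL13, which draws B cells that carry the receptor CXCR5. In this set, Itgal encodes the alpha chain of the leukocyte integrin LFA-1. Coro1a encodes coronin 1A, an actin-binding protein of blood cells. Ptprc encodes CD45, the phosphatase on the surface of nucleated blood cells. Stk17b encodes DRAK2, a kinase abundant in lymphocytes. Vcam1 and Cxcl13 belong to the vessel and stroma side, and Slpi encodes a secreted inhibitor of neutrophil serine proteases made by epithelial cells and leukocytes.

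The table lists genes by falling total count, down to 8471 counts over the 9 libraries, and the listed counts ran from 12115183 to 14208853 per library. These sums are not sequencing depths. Levels are given in CPM, the count scaled to a common total of listed counts after TMM normalisation. A gene entered the table by being abundant in at least some libraries, and CPX 6 alone held 51.8% of all Itgal counts, 50.0% of Coro1a counts and 52.0% of Ptprc counts. The EA libraries together held 41.8% of Itgal, 54.4% of Vcam1, 57.6% of Cxcl13 and 63.3% of Slpi counts. Without the EA libraries the totals of these genes would lie below the lowest listed total, so their place in the table rests on a group where they were high. Library CPX 6 stood apart before any comparison. Across genes its Spearman correlation was 0.19 with CPX 4 and 0.31 with CPX 8. Pairs within EA had at least 0.79 and pairs within MPX at least 0.87. CPX 4 and CPX 8 had 0.72 with each other, below every pair within EA and MPX. What is given for CPX without CPX 6 rests on these libraries alone. Adipocyte genes (6 of 6 listed, Adipoq, Plin1, Cidec, Lipe, Pnpla2 and Lep) summed to 8470 to 14390 CPM in EA, 15840 to 21720 CPM in MPX, and 1923 (CPX 6), 12960 (CPX 8) and 19920 CPM (CPX 4) in CPX. B cell genes (5 of 5 listed: Cd79a, Cd79b, Ms4a1, Pax5 and Cd22) summed to 413 to 1208 CPM in EA, 3.54 to 14.7 CPM in MPX, and 9.38, 2454 and 20.2 CPM in CPX 4, 6 and 8. None of the 7 T cell, 5 neutrophil, 4 dendritic cell or 8 mesothelial marker genes was among the listed genes, so these cells were not analysed here. Comparisons that include CPX are given with and without CPX 6. In bulk tissue, fewer cells of a type and less RNA per cell cannot be told apart.

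Itgal is the integrin chain that lymphocytes use to hold on to vessel walls. It stood at 75.9, 104 and 179 CPM in EA libraries 5, 7 and 8, at 13.9, 8.80 and 11.6 CPM in MPX libraries 2, 5 and 7, and at 6.34, 482 and 19.1 CPM in CPX libraries 4, 6 and 8. The 3 EA values lay above all MPX values and above CPX 4 and CPX 8, and CPX 6 was higher than any EA library. Its mean was 120 ± 53.3 CPM in the EA libraries and 11.4 ± 2.55 CPM in the MPX libraries (SD, n = 3 each). The gene lies on chromosome 7 (mm10, 127296260 to 127335138, plus strand).

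Coro1a, which organises the actin cortex of leukocytes, stood at 232, 388 and 571 CPM in EA libraries 5, 7 and 8, at 82.3, 50.5 and 42.6 CPM in MPX libraries 2, 5 and 7, and at 35.4, 1569 and 65.2 CPM in CPX libraries 4, 6 and 8. The lowest EA value was again above every MPX value. Ptprc, the pan-leukocyte phosphatase, stood at 222, 377 and 630.1 CPM in the same EA libraries, at 103, 39.1 and 53.3 CPM in MPX, and at 32.4, 1811 and 109 CPM in CPX. Both genes were thus highest in CPX 6, followed by EA 8, EA 7 and EA 5, and lowest in CPX 4. The mean of Ptprc was 410 ± 206 CPM in the EA libraries and 65.2 ± 33.6 CPM in the MPX libraries (SD, n = 3 each). The ratio of the 2 levels moved far less than either gene: Coro1a was between 0.597 and 1.29 CPM per CPM of Ptprc over the 9 libraries, while Coro1a alone spanned a 44.3-fold range and Ptprc a 55.9-fold range. Coro1a lies on chromosome 7 (mm10, 126699773 to 126707787, minus strand) and its 3′ end overlaps Bola2 on the other strand. Ptprc lies on chromosome 1 (138062861 to 138175708, minus strand) and contains the transcript A130071D04Rik. With no stated strand setting, reads of such overlaps cannot be told apart.

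Because Coro1a and Ptprc varied together, the 250 bases before a RefSeq start of each are shown (GRCm38.p6, which is mm10; gene strand, 5′ to 3′). Capitals mark letters that match a searched motif, on either strand: GGGNNNTTC for NF-kB, GAGGAAG for PU.1 and TATAAA for a TATA box. These windows lie at chr7:126704221-126704470 (minus strand, Coro1a, one of 2 listed starts) and chr1:138175306-138175555 (minus strand, Ptprc, one of 2 listed starts). Both lie inside the authors' gene spans, whose 5′ ends are at 126707787 (Coro1a) and 138175708 (Ptprc).
Coro1a: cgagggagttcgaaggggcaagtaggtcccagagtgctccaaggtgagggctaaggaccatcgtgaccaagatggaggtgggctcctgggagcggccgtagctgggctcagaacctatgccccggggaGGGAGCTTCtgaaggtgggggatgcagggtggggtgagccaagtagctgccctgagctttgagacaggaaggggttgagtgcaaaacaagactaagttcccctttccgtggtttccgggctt
Ptprc: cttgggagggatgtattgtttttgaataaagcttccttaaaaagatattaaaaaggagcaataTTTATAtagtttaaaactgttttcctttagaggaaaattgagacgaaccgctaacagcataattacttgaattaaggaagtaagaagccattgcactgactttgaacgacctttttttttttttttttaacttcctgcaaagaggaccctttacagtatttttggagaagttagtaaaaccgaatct
The Coro1a window held 1 match to the NF-kB letters and the Ptprc window 1 to the TATA letters, on the reverse strand. These windows are shown for their matches: the other window of each gene (Coro1a, chr7:126704817-126705066, and Ptprc, chr1:138175127-138175376) and that of Stk17b held none of the 3 motifs. Of 32851 mouse promoter windows of the same length, 11.8% held the NF-kB letters, 10.6% the PU.1 letters and 12.4% the TATA letters. A match is a description of letters. RefSeq windows were found for 5 of the 7 genes, and those of Itgal and Vcam1 are not shown.

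Stk17b, the lymphocyte kinase, stood at 132, 170.1 and 213 CPM in EA libraries 5, 7 and 8, at 50.4, 53.2 and 56.8 CPM in MPX libraries 2, 5 and 7, and at 51.1, 658 and 83.3 CPM in CPX libraries 4, 6 and 8. The MPX libraries were nearly equal, with a coefficient of variation of 6.03%, the lowest of any of the 7 genes in any group. The lowest library had 50.4 CPM, and the range over all 9 was 13.1-fold, against 76.0-fold for Itgal. Itgal per Stk17b was 0.574 to 0.842 in EA and 0.165 to 0.276 in MPX. The gene lies on chromosome 1 (mm10, 53755506 to 53785224, minus strand).

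**Figure D1:**
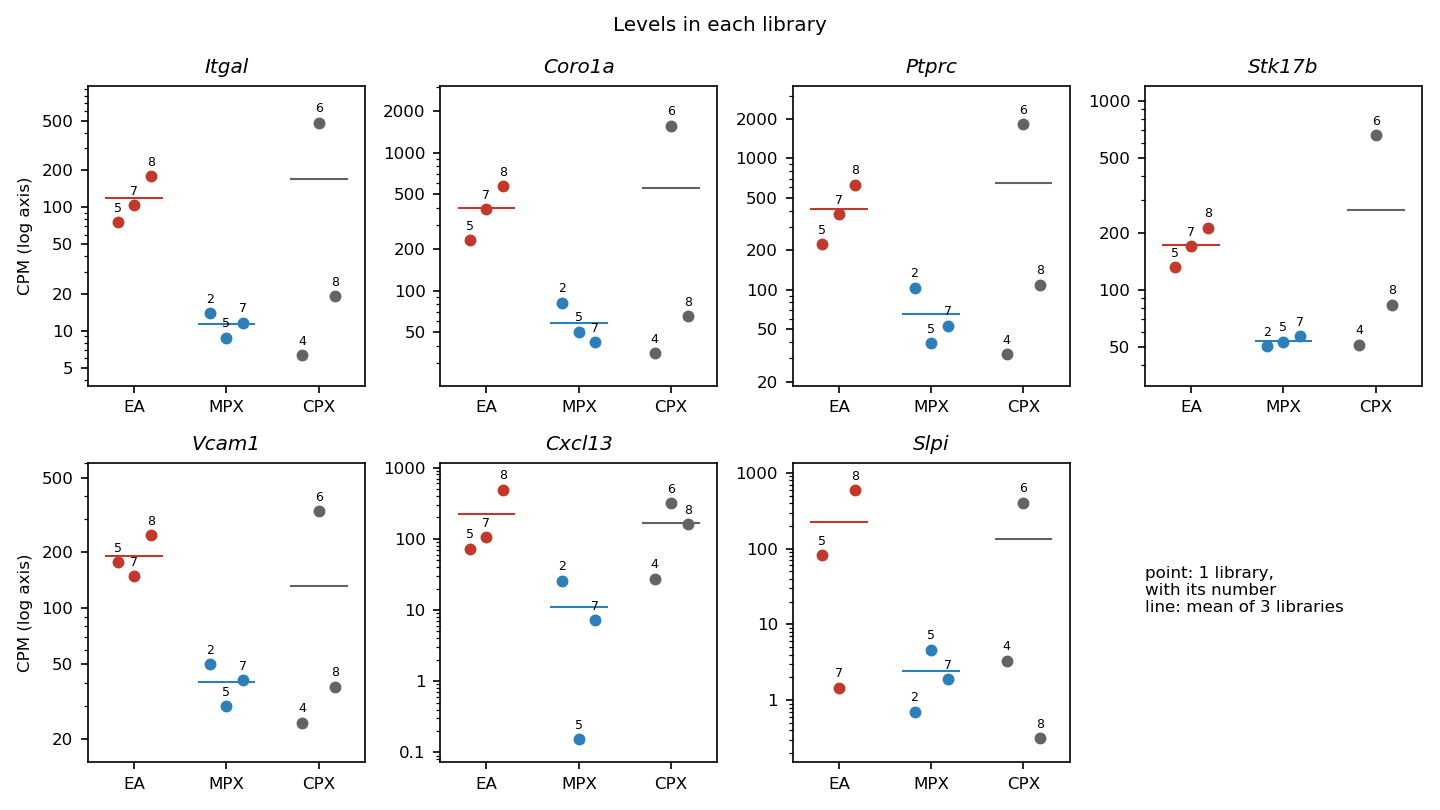
Level of each gene in CPM (log axis) in the EA, MPX and CPX libraries; each point is 1 library with its number and each line the mean of 3 libraries. For 6 genes the EA points lie above all MPX points, EA 7 lies among the MPX points for Slpi, and CPX 6 lies far above CPX 4 and CPX 8 for all but Cxcl13.

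Vcam1 encodes the endothelial and stromal adhesion molecule that binds integrin alpha 4 on lymphocytes. It stood at 176, 148 and 246 CPM in EA libraries 5, 7 and 8, at 50.2, 29.9 and 41.1 CPM in MPX libraries 2, 5 and 7, and at 24.3, 330.1 and 38.0 CPM in CPX libraries 4, 6 and 8. All EA values were at least 148 CPM and all MPX values at most 50.2 CPM, with means of 190.2 ± 50.3 CPM in the EA libraries and 40.4 ± 10.2 CPM in the MPX libraries (SD, n = 3 each). The gene was less tied to CPX 6 than Ptprc was: CPX 6 stood 10.6-fold above the mean of CPX 4 and CPX 8 for Vcam1, and 25.6-fold for Ptprc. Vcam1 lies on chromosome 3 (mm10, 116109949 to 116129688, minus strand), where the antisense gene Gm43109 overlaps its 5′ end.

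Cxcl13, the B cell chemokine, stood at 72.8, 105 and 492 CPM in EA libraries 5, 7 and 8, at 25.6, 0.15 and 7.14 CPM in MPX libraries 2, 5 and 7, and at 27.6, 313 and 162 CPM in CPX libraries 4, 6 and 8. The value in MPX 5 rests on 2 counts. Cxcl13 was the only one of the 7 genes whose 3 CPX values all lay above the 3 MPX values, and in CPX 8 it was higher than in EA 5 and EA 7. That library was poor in the other genes of the set and in B cell genes. Per CPM of the summed B cell genes, Cxcl13 was at 8.02 CPM in CPX 8. It was at 0.176, 0.164 and 0.407 in EA 5, 7 and 8, and 0.128 in CPX 6. The other libraries poor in B cell genes had 2.94 (CPX 4), 2.78 (MPX 2), 2.02 (MPX 7) and 0.0105 (MPX 5). In CPX 8 the other genes of the set ran from 0.0156 (Slpi) to 5.42 (Ptprc) on this scale, whose divisor is small there. The highest Cxcl13 level was in EA 8, not in CPX 6. The gene lies on chromosome 5 (mm10, 95956951 to 95961068, plus strand).

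The window before the Cxcl13 start (chr5:95956689-95956938, plus strand, GRCm38.p6) is shown with that of Slpi (chr2:164356508-164356757, minus strand), since these were the 2 genes that departed most from the order of libraries that Itgal and Ptprc share. Capitals are as above.
Cxcl13: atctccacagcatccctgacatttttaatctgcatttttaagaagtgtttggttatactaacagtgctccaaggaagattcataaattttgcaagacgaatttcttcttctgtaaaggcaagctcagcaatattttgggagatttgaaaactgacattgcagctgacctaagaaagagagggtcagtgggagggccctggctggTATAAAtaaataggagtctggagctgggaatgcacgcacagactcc
Slpi: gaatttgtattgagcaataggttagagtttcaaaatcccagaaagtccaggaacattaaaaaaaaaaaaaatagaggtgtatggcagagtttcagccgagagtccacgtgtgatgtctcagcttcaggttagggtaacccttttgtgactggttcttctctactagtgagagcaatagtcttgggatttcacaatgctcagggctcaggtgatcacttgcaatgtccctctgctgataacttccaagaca
The Cxcl13 window held the TATA letters on its own strand, beginning 46 bases before the start, and the Slpi window held none of the 3 motifs. No match says only that these letters are not in this window.

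Slpi, the protease inhibitor, showed 2 kinds of library. It stood at 82.2, 1.47 and 588 CPM in EA libraries 5, 7 and 8, at 0.71, 4.63 and 1.91 CPM in MPX libraries 2, 5 and 7, and at 3.31, 404 and 0.32 CPM in CPX libraries 4, 6 and 8. EA 5, EA 8 and CPX 6 were high and the other 6 libraries were below 5 CPM. EA 7 lay inside the MPX range and held 636 CPM of summed B cell genes, more than EA 5 with 413 CPM. The lowest values rest on few reads, 22 counts in EA 7, 10 in MPX 2 and 4 in CPX 8. The mean was 224 ± 318 CPM in the EA libraries and 2.42 ± 2.01 CPM in the MPX libraries (SD, n = 3 each), so the EA mean is smaller than its own SD. The Slpi gene also hosts the microRNA gene Mir7678. The authors' model of Slpi spans chromosome 2, 164354070 to 164389095 (mm10, minus strand), far beyond the RefSeq start used for the window above.

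Per length the genes were not equally abundant. Divided by the authors' gene lengths, EA levels averaged 194 ± 203 CPM per kb for Cxcl13, 190 ± 269 for Slpi and 143 ± 60.9 for Coro1a (SD, n = 3 each). Stk17b (33.1 ± 7.78), Ptprc (22.4 ± 11.2), Vcam1 (21.4 ± 5.67) and Itgal (18.2 ± 8.12) were lower on the same scale. In MPX the order was Coro1a (21.0 ± 7.55), Stk17b (10.3 ± 0.62), Cxcl13 (9.54 ± 11.4), Vcam1 (4.55 ± 1.14), Ptprc (3.56 ± 1.84), Slpi (2.05 ± 1.70) and Itgal (1.74 ± 0.39). In both groups Coro1a and Stk17b stood apart by more than their SDs, and every other pair of neighbours in the order overlapped within 1 SD. In CPX, where CPX 6 sets the spread, the order was Coro1a (200 ± 315), Cxcl13 (146 ± 124), Slpi (115 ± 197), Stk17b (51.0 ± 65.9), Ptprc (35.5 ± 54.9), Itgal (25.8 ± 41.3) and Vcam1 (14.7 ± 19.5), and all neighbours overlapped. The listed length of Ptprc, 18313 bases, covers all its annotated exons, which lowers its value per kb.

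The first comparison set electroacupuncture adipose tissue against MPX. All 7 genes had positive fitted log2 differences, with a median of 2.76, against a median of 0.012 over all 3958 genes, of which 51.4% were positive. Slpi had 6.53 (SE 2.75), Cxcl13 4.34 (SE 1.53), Itgal 3.39 (SE 1.38), Coro1a 2.76 (SE 1.27), Ptprc 2.65 (SE 1.28), Vcam1 2.24 (SE 0.89) and Stk17b 1.68 (SE 0.84). In 6 of the 7 genes every EA library was above every MPX library, the exception being Slpi. Among all listed genes 21.5% were separated in that direction. Since these groups may have guided the choice of genes, nothing is read from that difference. For Itgal, Vcam1, Cxcl13 and Slpi, whose place in the table rests on the EA libraries, the calls below are likewise descriptions.

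With all 9 libraries in the quasi-likelihood fit of edgeR, 0 of the 7 genes passed (adjusted p = 0.775 for each), and 0% of all genes were called. At an unadjusted p under 0.05 there were 4 of the 7 genes and 5.10% of all genes. DESeq2 called 0 of the 7 and 1.24% of all genes. With EA and MPX alone, edgeR called Itgal (adjusted p = 0.0178), Stk17b (0.0182), Vcam1 (0.0216) and Coro1a (0.0322), where 2.12% of all genes were called. Leaving out only CPX 6, which shares the estimate of the spread but is in neither group, edgeR called the same 4 genes (adjusted p from 0.0215 to 0.0398), beside 0.581% of all genes. Their log2 differences stayed close, at 3.38 for Itgal and 2.23 for Vcam1. Ptprc (adjusted p = 0.105), Slpi (0.152) and Cxcl13 (0.177) did not pass edgeR's test without CPX 6. DESeq2 without CPX 6, run after the data were seen, called all 7 genes (adjusted p from 2.21e-13 for Vcam1 to 0.0324 for Cxcl13), beside 15.2% of all genes. Single libraries moved the size for Slpi and Cxcl13. Without EA 8 the differences were 4.11 for Slpi and 3.01 for Cxcl13, without MPX 5 Slpi had 7.37, and without MPX 2 Cxcl13 had 5.88.

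**Figure D2:**
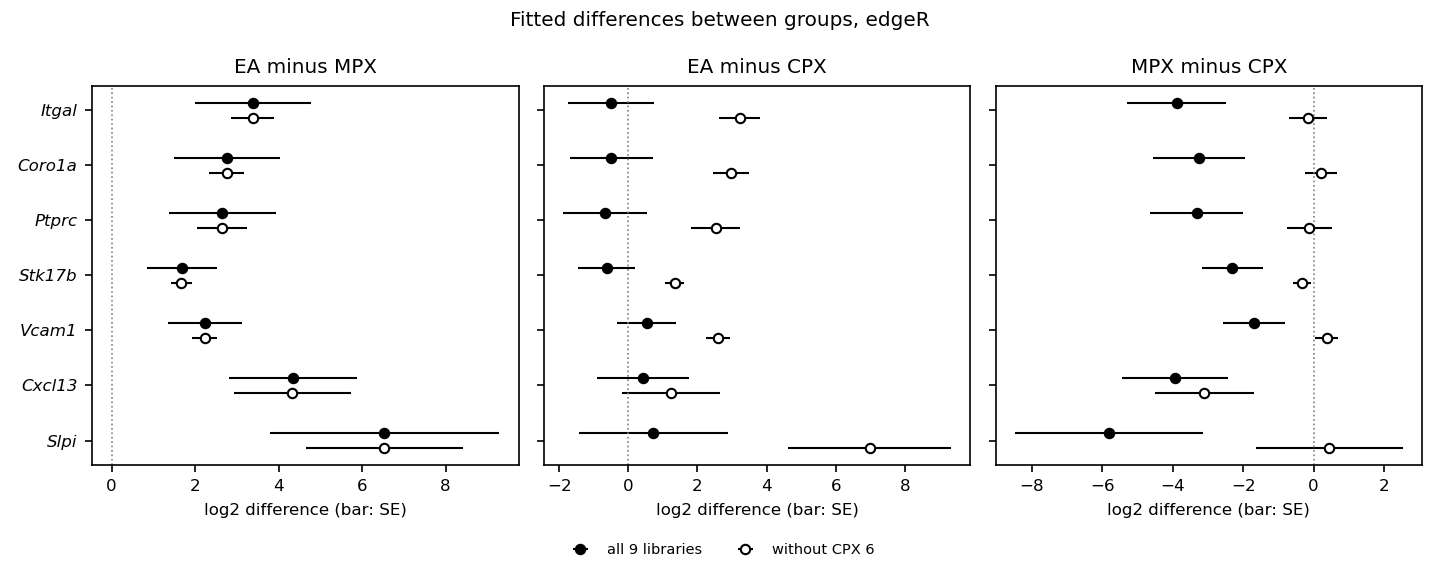
Fitted log2 difference (horizontal axis; bars are SE) of each gene in 3 comparisons, from all 9 libraries (filled points) and without CPX 6 (open points). EA minus MPX hardly moved, with Itgal at 3.39 and 3.38, while EA minus CPX turned from -0.50 to 3.22 for Itgal.

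Against CPX, the other group without a treatment label, electroacupuncture tissue showed no common direction: 3 of the 7 genes had positive and 4 negative differences. Vcam1 had 0.54 (SE 0.86), Slpi 0.72 (SE 2.15) and Cxcl13 0.41 (SE 1.33). Stk17b had -0.62 (SE 0.82), Ptprc -0.67 (SE 1.21), Itgal -0.50 (SE 1.25) and Coro1a -0.49 (SE 1.20). In all 7 genes the CPX range enclosed or overlapped the EA range, while 2.10% of all genes were separated with EA higher and 5.08% with EA lower. EdgeR called 0 of the 7 (adjusted p = 0.997 each) and 0% of all genes. The unadjusted p was under 0.05 for 0 of the 7 and for 2.96% of all genes, and DESeq2 called 0 of the 7 and 0.126% of all genes.

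The signs rested on CPX 6. Without it all 7 genes had positive differences from CPX 4 and CPX 8, at 3.22 for Itgal (SE 0.60), 2.97 for Coro1a (SE 0.51), 2.60 for Vcam1 (SE 0.35), 2.52 for Ptprc (SE 0.70) and 1.34 for Stk17b (SE 0.28). Vcam1 then passed edgeR's test (adjusted p = 0.0338), the other 6 did not (adjusted p from 0.0849 for Coro1a to 0.614 for Cxcl13), and 0.303% of all genes were called. DESeq2 without CPX 6 called 6 of the 7, all but Cxcl13 (adjusted p = 0.627), beside 18.3% of all genes. Cxcl13 had 1.23 (SE 1.42), a difference smaller than its error, with CPX 8 at 162 CPM. Without EA 8 the differences of Cxcl13 (-0.92) and Slpi (-1.70) from CPX were negative, and without CPX 4 that of Cxcl13 was -0.088. The direction of 4 genes also turned with limma voom on all 9 libraries, which averages log values (Itgal 1.18, Coro1a 1.30, Ptprc 1.10 and Stk17b 0.26).

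MPX was then set against CPX, a comparison that shares its libraries with the 2 above and is not independent of them. All 7 genes had negative differences: Slpi -5.81 (SE 2.67), Cxcl13 -3.93 (SE 1.5), Itgal -3.89 (SE 1.41), Ptprc -3.32 (SE 1.32), Coro1a -3.25 (SE 1.30), Stk17b -2.30 (SE 0.86) and Vcam1 -1.70 (SE 0.88). Over all genes the median was -0.11, and 40.7% were positive. Cxcl13 alone was separated, at 0.15 to 25.6 CPM in MPX and 27.6 to 313 CPM in CPX, with MPX 2 just below CPX 4, while 7.71% of all genes were separated in that direction. EdgeR called 0 of the 7 (adjusted p from 0.362 to 0.413) and 0% of all genes, with 5 of the 7 and 13.2% of all genes at an unadjusted p under 0.05. DESeq2 called Ptprc (adjusted p = 0.0411), Coro1a (0.0413) and Stk17b (0.0457), beside 5.08% of all genes. Without CPX 6 neither tool called any of the 7, while edgeR called 0% and DESeq2 6.57% of all genes. At an unadjusted p under 0.05 edgeR had 0 of the 7, beside 560 of all 3958 genes. DESeq2 gave no adjusted p for Itgal. Cxcl13 kept a difference of -3.10 (SE 1.41, edgeR adjusted p = 0.357), Itgal (-0.16), Ptprc (-0.12) and Stk17b (-0.33) were near 0 in edgeR's fit without CPX 6, and Coro1a (0.22), Vcam1 (0.37) and Slpi (0.45) changed sign.

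**Figure D3:**
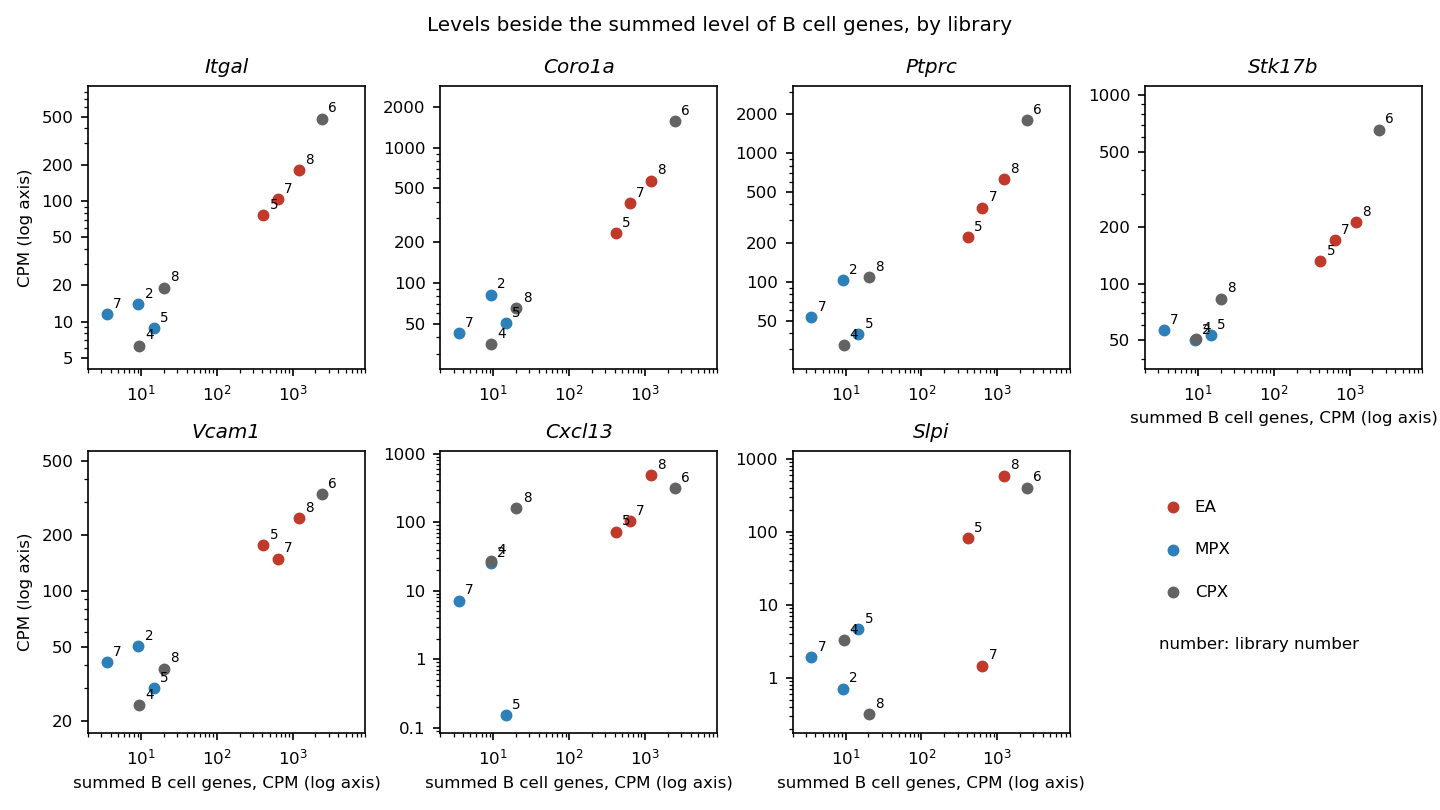
Level of each gene (vertical, CPM, log axis) beside the summed level of 5 B cell genes (horizontal, CPM, log axis) in each library, coloured by group and marked with the library number. EA libraries and CPX 6 lie at 413 to 2454 CPM of B cell genes and the other 5 at 3.54 to 20.2 CPM; Cxcl13 in CPX 8 and Slpi in EA 7 leave the common order.

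Markers of B cells moved with 5 of the 7 genes. The 4 libraries with the most B cell transcripts, CPX 6 and the 3 EA libraries, were the 4 highest for Itgal, Coro1a, Ptprc, Stk17b and Vcam1. In these libraries Itgal was 0.148 to 0.197 CPM per CPM of the B cell sum and Ptprc 0.521 to 0.738. In the other 5 libraries Itgal was 0.60 to 3.28 and Ptprc 2.67 to 15.1 on the same scale, so both genes were higher relative to the B cell genes there. Macrophage genes (5 of 5 listed, Adgre1, Cd68, Csf1r, Lyz2 and Mrc1) overlapped between groups, at 1821 to 4570 CPM in EA, 879 to 2529 CPM in MPX and 958 to 3644 CPM in CPX. Mast cell genes (3 of 3 listed: Cpa3, Cma1 and Mcpt4) summed to 213 to 524 CPM in EA, 42.2 to 182 CPM in MPX and 140.1 to 427 CPM in CPX, with every EA library above every MPX library. Endothelial genes (5 of 5 listed) ran from 971 to 1322 CPM in EA, 1337 to 2052 CPM in MPX and 793 to 1315 CPM in CPX. Here every EA sum was below every MPX sum, as it was for the adipocyte sums given above. Gene by gene, the EA and MPX ranges of Pecam1, Kdr, Tie1, Cidec and Pnpla2 overlapped. The part of these cells in the differences was not tested.

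Partners of each gene were taken from lists of pathway genes, which hold the 7 genes too. Among 12 leukocyte adhesion receptors 9 were listed, 7 with positive and 2 with negative differences between EA and MPX, and 0 were called by edgeR (2 at an unadjusted p under 0.05). Itga4, whose product binds VCAM-1, averaged 83.7 ± 38.8 CPM in the EA libraries and 19.9 ± 7.43 CPM in the MPX libraries (SD, n = 3 each), and its beta partner Itgb7 75.3 ± 16.0 CPM and 13.6 ± 4.53 CPM. Itgb1, the other and widely expressed beta partner, had 573 ± 45.3 CPM in the EA libraries and 735 ± 51.8 CPM in the MPX libraries. Itgb2 encodes the beta chain that pairs with the Itgal product and is shared with integrins of macrophages. It did not separate the groups, at 110.1, 106 and 256 CPM in EA libraries 5, 7 and 8 and 147, 61.7 and 66.4 CPM in MPX libraries 2, 5 and 7, a log2 difference of 0.78 (SE 0.95).

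On the vessel side the other ligands did not share the positive difference of Vcam1. Of 15 endothelial ligands 7 were listed, and apart from Vcam1 and Jam2 (0.016) they had negative differences between EA and MPX, down to -1.59 (SE 0.30) for Alcam, with a list median of -0.28 and 0 called. Icam1, Madcam1, Sele and Selp were not among the listed genes and were not analysed here. Of 19 homing chemokines and receptors 7 were listed, 6 positive and 1 negative, with a median of 0.61 and 0 called. Cxcl12, the stromal chemokine of marrow and lymphoid tissue, averaged 483 ± 140.0 CPM in the EA libraries and 327 ± 64.4 CPM in the MPX libraries, ranges that overlap. Ccl8, a macrophage chemokine, had 208, 66.0 and 608 CPM in EA libraries 5, 7 and 8 and 120.0, 14.3 and 58.3 CPM in MPX libraries 2, 5 and 7. Cxcr5, Ccr7, Ccl19 and Ccl21a were not analysed here.

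The lymphoid stroma and lymphotoxin list had 9 of 23 genes listed, 5 positive and 4 negative (median 1.19, 0 called, 4 at an unadjusted p under 0.05). Cr2 encodes CD21, through which B cells and follicular dendritic cells bind complement fragments. It stood at 75.9, 102 and 247 CPM in EA libraries 5, 7 and 8, at 0.78, 1.08 and 0.64 CPM in MPX libraries 2, 5 and 7, and at 0.19, 400.3 and 2.44 CPM in CPX libraries 4, 6 and 8. Clu, a secreted chaperone abundant in follicular dendritic cells among other cells, averaged 481 ± 241 CPM in the EA libraries and 58.3 ± 13.8 CPM in the MPX libraries. Nfkb2, a subunit of the alternative NF-kB pathway, averaged 107 ± 51.8 CPM and 46.7 ± 2.84 CPM. Ltbr, the lymphotoxin beta receptor, had 89.1 ± 7.86 CPM in the EA libraries and 123 ± 11.2 CPM in the MPX libraries, a log2 difference of -0.47 (SE 0.30) with separate ranges.

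Of 31 leukocyte actin and motility genes 27 were listed, Coro1a among them. Between EA and MPX 25 were positive and 2 negative (median 0.89, 0 called and 0 at an unadjusted p under 0.05). The haematopoietic GTPase gene Rac2 averaged 216 ± 105 CPM in the EA libraries and 27.1 ± 10.1 CPM in the MPX libraries, a log2 difference of 2.99 (SE 1.35). The widely expressed relatives of Coro1a did not share its size of difference: Coro1b had 0.30 (SE 0.25) and Coro1c -0.17 (SE 0.33), and the actin-severing Cfl1 0.007 (SE 0.45). Of 15 phosphatase and kinase genes 7 were listed, Ptprc among them, and all 7 were positive. Ptpn6, the phosphatase SHP-1, had 2.83 (SE 1.20) and Lyn, a kinase of B cells and myeloid cells, 1.04 (SE 0.66). Beside Stk17b, the DAP kinase relative Dapk1 had -0.15 (SE 0.40). Among 6 listed of 18 protease and inhibitor genes, the mast cell proteases Mcpt4 (2.16, SE 0.71) and Cma1 (2.02, SE 0.66) were positive, and the inhibitor Cst3 had -0.21 (SE 0.36). Elane and Ctsg, the neutrophil proteases that the Slpi product inhibits, were not analysed here.

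Without CPX 6 the medians of these lists between EA and MPX hardly moved (0.99 for the adhesion receptors, 0.89 for the actin genes). EdgeR then called Cr2 and Clu of the partners, beside Itgal, Vcam1, Coro1a and Stk17b themselves. It also called all 5 B cell genes, and 0.581% of all genes. Cr2, Itga4, Itgb7, Nfkb2, Ptpn6, Lyn and the B cell and mast cell genes also rest on EA for their place in the table. Without the EA libraries their totals would lie below the lowest listed total. Their levels, differences and calls are therefore descriptions too.

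Against CPX the lists turned on CPX 6. With it the EA medians lay near 0, at -0.25 for the actin genes, -0.22 for the adhesion receptors, 0.062 for the phosphatases and kinases and 0.077 for the lymphoid stroma list, with 0 genes called. Without it they were 1.26, 1.80, 2.18 and 1.23 in the same order, against -0.041 over all genes. Then 26 of 27 actin genes and all 7 phosphatase and kinase genes were positive, beside 1865 of all 3958 genes. EdgeR then called Cr2 and Vcam1 of the pathway lists, beside 0.303% of all genes. It also called 4 of the 5 B cell genes (Cd79a, Cd79b, Pax5 and Cd22).

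MPX minus CPX turned likewise. With CPX 6 the medians were -1.17 for the actin genes, -0.94 for the adhesion receptors, -1.17 for the phosphatases and kinases and -0.95 for the lymphoid stroma list, and 25 of 27 actin genes and all 7 phosphatase and kinase genes were negative. Without CPX 6 the medians were 0.22, 0.28, 0.42 and 0.16 in the same order. Then 8 of 27 actin genes and 1 of 7 phosphatase and kinase genes were negative, beside 2055 of all 3958 genes. EdgeR called 0 genes of these lists either way.

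**Figure D4:**
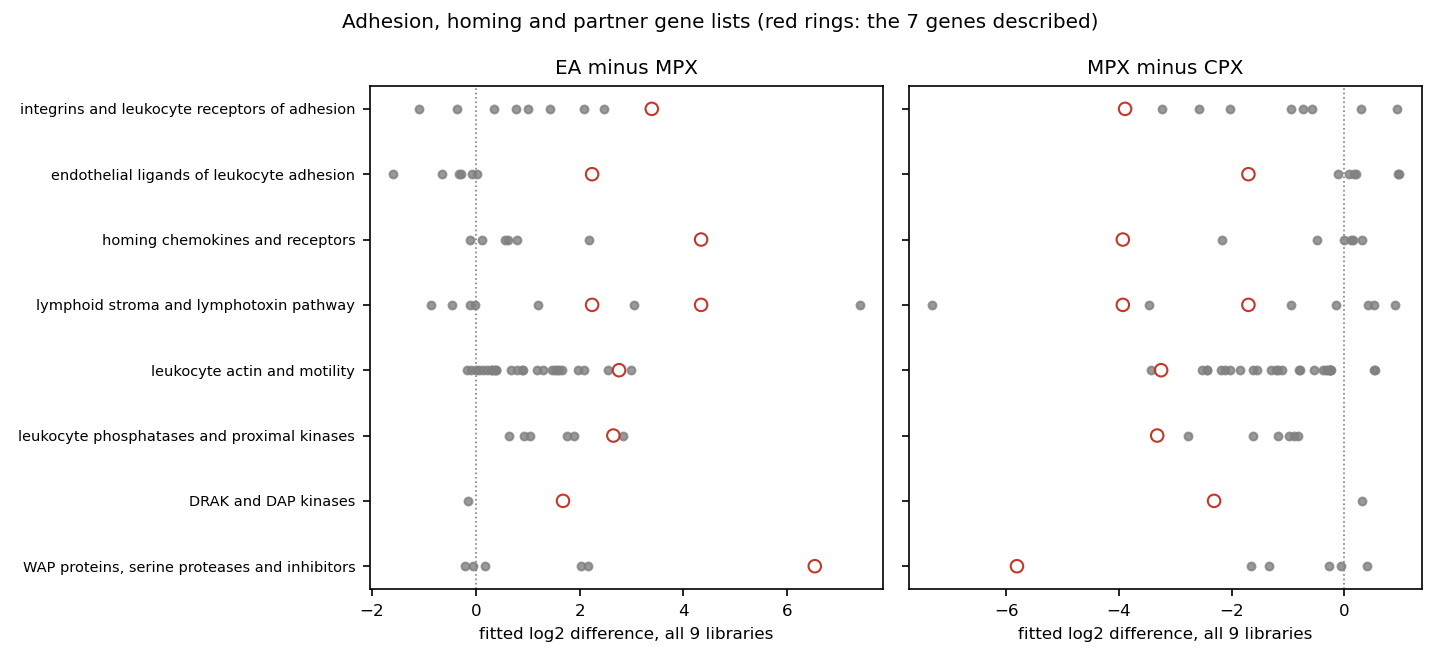
Fitted log2 differences (horizontal axis) of the listed genes of 8 pathway lists for EA minus MPX and MPX minus CPX, fitted with CPX 6 included; each grey point is a gene and red rings mark the 7 genes described. Vcam1 is at 2.24 while the other endothelial ligands lie between -1.59 and 0.016.

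Pairs within the set followed each other to different degrees over the 9 libraries, among which CPX 6 was the highest for 5 genes and EA 8 for Cxcl13 and Slpi. Pearson's r of log2 CPM was 0.99 between Itgal, Coro1a and Ptprc in each pair, and 0.98 between Itgal and Vcam1. It was 0.72 between Itgal and Cxcl13 and 0.76 between Itgal and Slpi, and 0.43 between Cxcl13 and Slpi. Without CPX 6 these were 0.98 for the first 3 pairs, 0.98, 0.69, 0.64 and 0.31. Spearman's rho was 1.00 for Itgal and Ptprc, which ranked the libraries identically, and 0.40 for Itgal and Slpi. Among the listed genes, the pattern most like that of Coro1a was Sash3 (r = 0.999), and that of Itgal was Rac2 (0.993). The pattern nearest to Ptprc was Ciita (0.992), and to Stk17b Cd55 (0.993). Vcam1 was most like Itgal itself (0.98), then Rac2 (0.979), Cd22 (0.978), Cr2 (0.976) and Sympk (0.973). Without CPX 6 all 5 stayed at 0.962 or above. Cxcl13 was nearest to Dpp8 (0.942) and the complement gene C3 (0.941), and Slpi to Atp6v0a2 (0.946). Dpp8 moved between 113 and 178 CPM only, so likeness of pattern is not likeness of size. C3 stood at 1843, 1579 and 7155 CPM in EA libraries 5, 7 and 8, at 1712, 330.4 and 1168 CPM in MPX libraries 2, 5 and 7, and at 2474, 4621 and 4251 CPM in CPX libraries 4, 6 and 8. Like Cxcl13, it was highest in EA 8 and was high in CPX 8.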

How the data were processed

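RNA was sequenced after TruSeq library preparation, per the labels' protocols. Their extraction text is written for retinas while every tissue label reads adipose, and 0 of 8 retina genes were among the listed genes. The submitters' processing notes name HISAT2 2.0.5 and mm10. Which program and annotation did the counting, and with which strand setting, is not given in the sources used here. The deposited table holds whole-number counts for 3958 genes in 9 library columns, per the file headers, and its last row is incomplete. Columns were matched to libraries by title, and 11 gene names were restored from the gene ID.

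EdgeR 4.0.16 (R 4.3.3) fitted the counts of all 9 libraries with a mean per group, TMM, filterByExpr and the robust quasi-likelihood option. Each contrast's p-values were adjusted by the Benjamini-Hochberg method across the table, and a gene was called at an adjusted p under 0.05. The filter removed no gene. The SE was taken as the absolute log2 difference over the root of the F statistic. Replicates held different counts, with a chi-square per degree of freedom of at least 71.5. For single values, exact permutation of 3 against 3 libraries reaches no two-sided p under 0.1. The fit was tested on simulated counts that held no outlying library such as CPX 6, so that case was not covered. Alternatives were other scalings and filters, DESeq2 1.42.0, voom of limma 3.58.1, the robust option off, the compared groups alone, each library left out and the library number as a block. DESeq2, the list values and the correlations without CPX 6 were added after the data were seen. Named genes were the 7 genes, their direct partners on lists of pathway genes, and listed genes most alike in pattern (up to 5 each by Pearson correlation of log2 CPM with a prior count of 2, without immunoglobulin and T cell receptor segments). The genes and the lists were chosen with earlier results of these data known, and 2 genes of the lists are not reported here. Promoter sequences are from RefSeq, build GRCm38.p6.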

Additional observations from a re-analysis of the deposited data

How the results depend on the processing

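None of the scalings changed a sign or a call among the 7 genes; without scaling beyond the column sums, the median of all genes was 0.11 rather than 0.012 (EA minus MPX), 0.10 rather than -0.093 (EA minus CPX) and 0.0018 rather than -0.11 (MPX minus CPX). Filters removed no gene and say nothing about stability, except that with MPX and CPX alone 3957 genes were tested. Genes called numbered 0 in each comparison, but 49 (EA minus MPX), 5 (EA minus CPX) and 201 (MPX minus CPX) with DESeq2, 84 with EA and MPX alone, and 6 for EA minus MPX with the library number as a replicate block. Of the 7 genes, 3 were called with DESeq2 (MPX minus CPX), 4 with EA and MPX alone, and 1 (Itgal, adjusted p = 0.0324) with the block. For EA minus MPX the block compares EA 5 and EA 7 with MPX 5 and MPX 7 only. Leaving out 1 library, genes called ran from 0 to 23 (EA minus MPX, without CPX 6), 0 to 12 (EA minus CPX, without CPX 6) and 0 to 168 (MPX minus CPX, without CPX 8), and of the 7 from 0 to 4 and 0 to 1 in the first 2. DESeq2 without CPX 6, added after seeing the data, called 601 (EA minus MPX), 723 (EA minus CPX) and 260 (MPX minus CPX) genes, and 7, 6 and 0 of the 7. It gave 3.22 (Itgal), 2.96 (Coro1a), 2.52 (Ptprc) and 1.34 (Stk17b) for EA minus CPX, and 0.37 (Vcam1), 0.22 (Coro1a) and 0.40 (Slpi) for MPX minus CPX. The cause was not tested.

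All 140 alternative values of EA minus MPX (7 genes, 20 alternatives) kept their positive sign, but that count says little about stability. The filters and the robust option left these values unchanged, and the CPX libraries are in neither group. For the 6 genes with separate EA and MPX ranges, leaving out a library could not turn the sign. Sizes moved: Slpi ran from 2.63 (replicate block) to 7.37 (without MPX 5) and Cxcl13 from 3.01 (without EA 8) to 5.88 (without MPX 2). The other 5 genes stayed between 1.45 and 3.63. Signs of EA minus CPX turned with limma voom (Itgal 1.18, Coro1a 1.30, Ptprc 1.10, Stk17b 0.26) and with the replicate block (3.22, 3.13, 2.53 and 1.35). The block value compares EA 8 with CPX 8 alone, because CPX 4 and CPX 6 share their numbers with no other library. It is therefore no separate check on the role of CPX 6, which it leaves out. Leaving out 1 library, EA minus CPX ran from -1.06 to 3.22 (Itgal), -1.03 to 2.97 (Coro1a), -1.22 to 2.52 (Ptprc), -1.10 to 1.34 (Stk17b), -0.92 to 1.23 (Cxcl13) and -1.70 to 6.98 (Slpi). For MPX minus CPX the block gave 0.089 (Itgal), 0.49 (Vcam1), 0.44 (Coro1a) and 8.19 (Slpi), again with CPX 8 as the only CPX library it uses. Leaving out 1 library gave -2.15 to 0.37 (Vcam1), -3.76 to 0.22 (Coro1a) and -6.64 to 0.45 (Slpi). The numbers are shared by EA and MPX libraries 5 and 7 and by EA and CPX library 8 only, and same-numbered libraries deviated from their group means with correlations of 0.022, 0.12 and -0.51, so they share a number and nothing shows a pairing; the block leaves 1 residual degree of freedom.

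The low Slpi levels rest on 4 to 60 counts a library.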
